A study of Mus musculus with 10 samples.

Results

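The RNF and TRIM families of ubiquitin ligases were followed in mouse blood. The genes were all those whose deposited symbol is Rnf or Trim followed by a number, 93 of the 10431 genes in the table, of which 59 are RNF and 34 are TRIM genes.

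Ubiquitin ligases of the RING type are enzymes that hold a substrate and a ubiquitin-charged E2 enzyme together, so that ubiquitin passes to the substrate and changes its stability, location or activity. The RNF genes share the zinc-binding RING finger and little else, and their products range from membrane-anchored ligases to chromatin and immune signaling regulators. Most TRIM genes encode a RING finger followed by B-box and coiled-coil domains, though not every member, such as Trim14 and Trim44, has the RING finger. Many TRIM genes act in antiviral defense, while Trim10 and Trim58 are known from maturing red cells. These cells remove most of their proteins and organelles on the way to the circulation.

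Blood RNA-seq was compared between 10 female C57BL/6J mice, 5 prone to antipsychotic-induced weight gain (AIWG-P) and 5 resistant to it (AIWG-R). The cohorts were the opposite ends of weight gain in a larger set of mice fed a 45% kcal fat diet with olanzapine for 14 days, all of one strain and sex, bought at 9 weeks of age, with no drug-free group among these samples. The study's methods place the blood draw before the drug diet, while the labels name the olanzapine diet as treatment and a 3 day lead-in on high-fat diet, so the values are taken as baseline blood on the word of the methods alone. Whole blood mixes cell types, so more cells of a type and more RNA per cell cannot be told apart in any value below.

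Every one of the 93 genes was above 1 in each of the 10 mice, and all were tested. The mean value over the 10 mice ran between 17.6 and 21250 among RNF genes, with a median of 220, and between 21.0 and 1640 among TRIM genes, with a median of 253. The values are normalized by the authors and are not per length. The sum of all values was between 22353520 and 45642066 in AIWG-P mice and between 16909806 and 30472510 in AIWG-R mice, and 4 globin genes took 78.2 to 87.5% of it in AIWG-P mice and 75.0 to 83.2% in AIWG-R mice. The median gene lay between 142.9 and 145.5 in AIWG-P mice and between 144.3 and 145.7 in AIWG-R mice. The labels also carry a running number per library, 25 to 33 in AIWG-P and 36 to 43 in AIWG-R, whose meaning they do not give, so whatever it stands for and the cohort cannot be told apart.

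Start-site sequence was taken from RefSeq (GRCm38.p6, a later build than the mm9 of the values), where 47 RNF and 26 TRIM genes had an entry of 250 bases before to 50 after the start. The first set is shown because the genes that differed between the cohorts have unlike start sites. The 60 bases before the start are given on the strand of the gene, with each CG pair in capitals.
Trim10, chr17:36869514-36869573, plus strand: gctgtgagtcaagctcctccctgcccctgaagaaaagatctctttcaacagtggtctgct
Trim58, chr11:58640405-58640464, plus strand: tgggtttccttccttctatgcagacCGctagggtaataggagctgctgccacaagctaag
Trim39, chr17:36272005-36272064, minus strand: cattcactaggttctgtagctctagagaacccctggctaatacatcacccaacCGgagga
Rnf10, chr5:115272896-115272955, minus strand: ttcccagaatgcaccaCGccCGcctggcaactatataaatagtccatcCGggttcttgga
Rnf115, chr3:96727551-96727610, plus strand: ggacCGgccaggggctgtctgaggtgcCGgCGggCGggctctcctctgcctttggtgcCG
Rnf157, chr11:116413033-116413092, minus strand: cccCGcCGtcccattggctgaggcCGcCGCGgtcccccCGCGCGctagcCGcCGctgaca

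Over the whole start-site window, RNF genes held a median of 24 CG pairs and TRIM genes 13, against 21 in the 8312 genes of the table with an entry and 7 in all 27025 promoters. Trim10 held 2 CG pairs, Trim58 and Trim39 held 8 each, and Trim7 held 9, while Rnf10 held 15, Rnf115 25 and Rnf157 48.

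The second set is shown because TRIM promoters more often held a match to the interferon-stimulated response element, searched as GAAA, any 2 bases and GAAA again, on both strands. The pattern stood in 8 of 26 TRIM windows (30.8%) and 2 of 47 RNF windows (4.26%), and in 3.43% of the table's genes. Capitals mark the match, here read as its reverse complement, in 30 bases on the strand of the gene. The Trim26 stretch also holds a further match, at -154 from the start, which overlaps the one in capitals at -160 and is not itself marked.
Trim30a, chr7:104465210-104465239, minus strand: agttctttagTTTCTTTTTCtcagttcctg
Trim30d, chr7:104507871-104507900, minus strand: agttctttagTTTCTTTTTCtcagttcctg
Trim12c, chr7:104353359-104353388, minus strand: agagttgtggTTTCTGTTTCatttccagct
Trim5, chr7:104288136-104288165, minus strand: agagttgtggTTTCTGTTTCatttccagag
Trim26, chr17:36836976-36837005, plus strand: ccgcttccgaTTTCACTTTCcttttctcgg
The Trim30a and Trim30d stretches are the same, those of Trim12c and Trim5 differ only at their end, and 6 of the 8 TRIM genes with the pattern lie in one cluster of related genes, at chr7:104244207-104508099, so the share does not count independent promoters. None of the 8 TRIM genes with the pattern was called in the comparison below, and their log2 fold changes ran between -0.32 and 0.03. A match to the GATA site, searched as AGATAA and TGATAA on both strands, stood in none of the RNF windows and 2 TRIM windows, those of Trim10 and Trim39, against 9.94% of the table's genes. The Trim10 match is shown because Trim10 is a red cell gene, with the site in capitals.
Trim10, chr17:36869399-36869428, plus strand: agctcaagagccTTATCTgagtccccacac
A match describes letters only, and no binding was measured.

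AIWG-P and AIWG-R mice were compared gene by gene with limma on log2(value + 1), over the 10429 genes that exceeded 1 in 5 or more mice. Genes with an unadjusted p under 0.05 and a log2 fold change beyond 0.3219 in either direction are described as called. Of all genes, 4.06% were called higher and 3.23% lower in AIWG-P mice, and 12.8% had an unadjusted p under 0.05. No gene of the table had a Benjamini-Hochberg adjusted p under 0.05 in limma. Among RNF genes, 3 of 59 were called higher (Rnf10, Rnf11 and Rnf115) and 1 lower (Rnf157), and among TRIM genes 2 of 34 were called higher (Trim10 and Trim58) and 2 lower (Trim39 and Trim7). These shares, 5.08 and 1.69% of RNF genes and 5.88% each way of TRIM genes, were close to the background. The smallest adjusted p of any member was 0.325, in limma, and 8 RNF and 7 TRIM genes had an unadjusted p under 0.05. Single mice moved these counts. Without R9, 1 RNF gene was called higher. Without P3 or P5, 3 or 2 RNF genes were called lower, and without P1 or P8, 4 or 1 TRIM genes were called lower. Counts over all genes moved the same way. Calls higher were 423 with all mice and 265 without R9. Calls lower were 337 with all mice, 637 without P3, 602 without P5, 425 without P1 and 228 without P8.

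**Figure D1:**
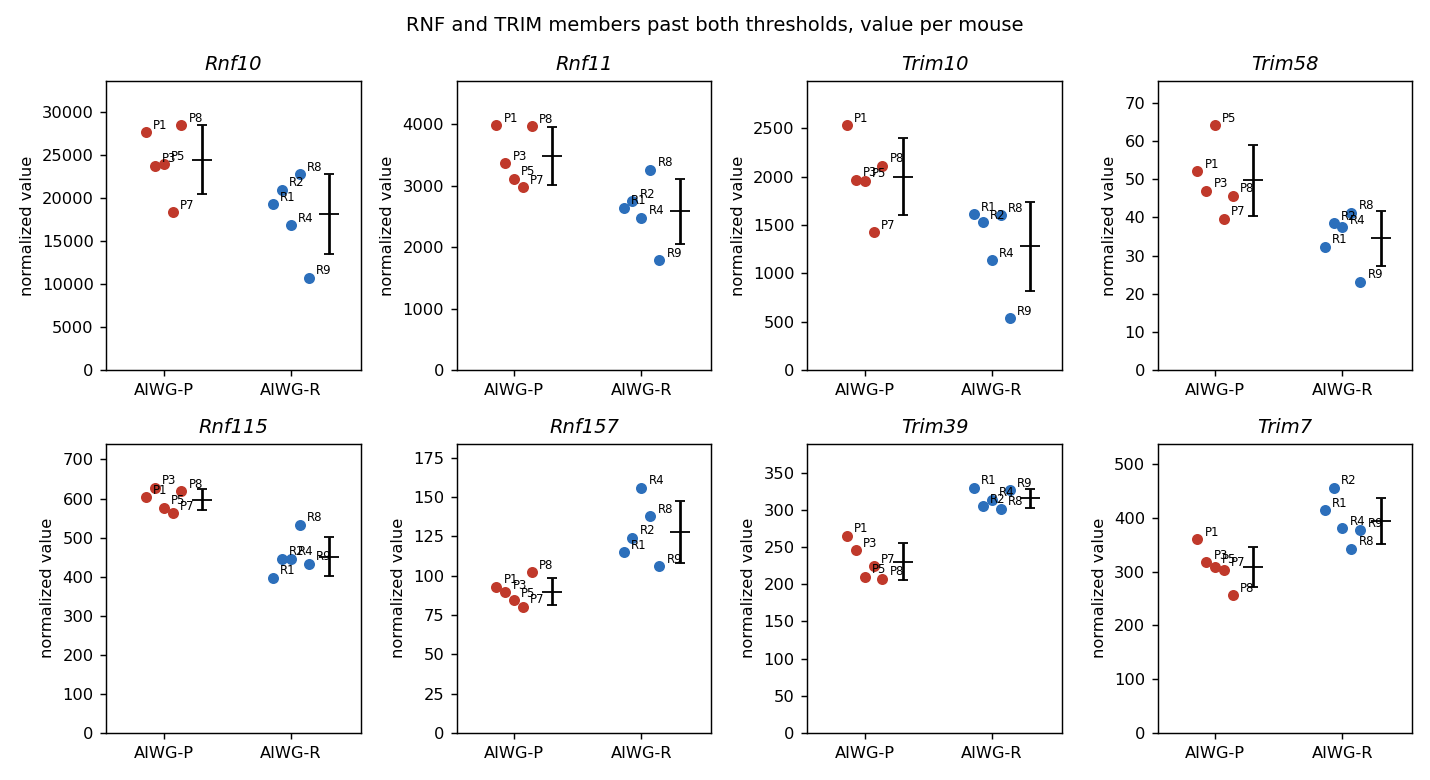
Normalized value (vertical axes, from 0) of the 8 called members in each mouse, AIWG-P in red and AIWG-R in blue, with the cohort mean and SD (n = 5 each) as a black bar. The cohorts do not overlap for Rnf115, Rnf157 and Trim39, and R9 is the lowest mouse for Rnf10, Rnf11, Trim10 and Trim58.

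Trim10, a TRIM protein needed for terminal red cell differentiation in cultured mouse cells, had the largest change of the 93 genes with all 10 mice in the fit. Its value was 2532.2, 1965.0, 1955.1, 1426.4 and 2114.7 in AIWG-P mice P1, P3, P5, P7 and P8, against 1609.3, 1528.7, 1136.7, 1599.9 and 534.9 in AIWG-R mice R1, R2, R4, R8 and R9. The cohorts overlapped through P7, and R9 was far under the other AIWG-R mice. The log2 fold change was 0.72 ± 0.27 (SE), which is 1.65-fold (limma p = 0.0177, adjusted p = 0.343, and p = 0.0318 in an exact two-sided permutation test). Both the size and the rank rested on R9, since the log2 fold change was 0.43 without that mouse, while Rnf157 was then at -0.56 and Trim39 at -0.44.

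Trim58, a ligase that degrades the motor protein dynein in mouse erythroblasts before they lose the nucleus, was a far rarer transcript. It had 52.0, 46.9, 64.1, 39.6 and 45.6 in AIWG-P mice, against 32.2, 38.4, 37.4, 41.2 and 23.2 in AIWG-R mice in the same order of mice. Only P7 lay within the AIWG-R range, and R9 was again lowest. Per kilobase of exon, the mean level over the 10 mice was 731 for Trim10 and 19.2 for Trim58. The log2 fold change of Trim58 was 0.52 ± 0.18 (SE; limma p = 0.0125, adjusted p = 0.341, exact permutation p = 0.0159).

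Rnf10, a ligase of stalled small ribosomal subunits in human cells, was the most abundant member, at 2810 per kilobase of exon, above Trim10 at 731 and Rnf11 at 711. Its value was 27609.2, 23732.5, 23968.9, 18321.1 and 28420.9 in AIWG-P mice, against 19254.9, 20934.9, 16826.3, 22716.2 and 10720.5 in AIWG-R mice. The cohorts overlapped, with P7 under 3 of the AIWG-R mice. Its log2 fold change was 0.46 ± 0.20 (SE; limma p = 0.0351, adjusted p = 0.370), and the exact permutation test gave p = 0.0556. This call was lost when any one of P1, P5, P8, R4 or R9 was left out, with log2 fold changes between 0.28 (without R9) and 0.56 over the 10 omissions, and when the values were quantile normalized (0.11). Pop5 lies on the opposite strand over 3940 bases of the Rnf10 gene span, introns included. Pop5 averaged 86.7 ± 9.3 in AIWG-P mice and 71.1 ± 12.2 in AIWG-R mice (SD, n = 5 each).

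Rnf11, a partner of the ubiquitin-editing enzyme A20 in NF-kB signaling, had 3983.9, 3365.9, 3112.4, 2973.5 and 3967.0 in AIWG-P mice, against 2637.1, 2742.7, 2479.2, 3256.2 and 1787.2 in AIWG-R mice. R8 alone reached into the AIWG-P range, and R9 was lowest. The log2 fold change was 0.45 ± 0.15 (SE; limma p = 0.00886, adjusted p = 0.327, exact permutation p = 0.0238). Without R9 the change was no longer past the fold threshold, by a narrow margin, at 0.32.

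Rnf115, a ligase that binds the endosomal GTPase Rab7, separated the cohorts. It had 603.1, 627.4, 575.9, 562.2 and 619.0 in AIWG-P mice, against 397.0, 445.2, 445.4, 532.6 and 433.3 in AIWG-R mice. Every AIWG-P mouse was above every AIWG-R mouse, which held for 1.11% of all genes. The means were 597.5 ± 27.8 in AIWG-P mice and 450.7 ± 49.9 in AIWG-R mice (SD, n = 5 each). The log2 fold change was 0.41 ± 0.09 (SE; limma p = 0.000322, adjusted p = 0.325), and the exact permutation p of 0.00794 is the smallest that 5 against 5 mice can give.

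Rnf157, a ligase studied mostly in neurons, was the RNF gene called lower. It had 93.1, 89.5, 84.4, 80.2 and 102.1 in AIWG-P mice, against 114.8, 124.3, 155.9, 137.8 and 106.0 in AIWG-R mice. Every AIWG-P mouse was below every AIWG-R mouse, as in 1.44% of all genes, with P8 and R9 nearest each other. Its log2 fold change was -0.49 ± 0.12 (SE; limma p = 0.00102, adjusted p = 0.325, exact permutation p = 0.00794).

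Trim39, a ligase known in human cells for blocking degradation of the apoptosis protein MOAP1, had the lowest p of the 93 genes. It had 264.7, 245.5, 210.2, 223.7 and 207.4 in AIWG-P mice, against 329.4, 304.8, 313.6, 301.5 and 326.1 in AIWG-R mice. The cohorts did not overlap, and the AIWG-R mice were close together at 315.1 ± 12.4, while AIWG-P mice were at 230.3 ± 24.4 (SD, n = 5 each). This gave a log2 fold change of -0.46 ± 0.09 (SE; limma p = 0.000139, adjusted p = 0.325, exact permutation p = 0.00794).

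Trim7, which binds glycogenin, had 360.2, 317.5, 309.4, 303.9 and 256.1 in AIWG-P mice, against 414.1, 455.9, 380.4, 342.8 and 376.9 in AIWG-R mice. P1 and R8 made the cohorts overlap. Its log2 fold change was -0.35 ± 0.10 (SE; limma p = 0.00496, adjusted p = 0.325, exact permutation p = 0.0159), and the call was lost without P8 (-0.28) or without R2 (-0.29). Gm16170 lies on the opposite strand over 8562 bases of Trim7 and was itself called lower, with 72.5, 77.5, 47.7, 33.7 and 18.9 in AIWG-P mice and 106.2, 76.0, 82.0, 86.8 and 111.0 in AIWG-R mice. Gm12184 overlaps 516 bases on that strand and was called higher, with 134.1 ± 21.6 in AIWG-P mice and 95.6 ± 18.2 in AIWG-R mice (SD, n = 5 each). These overlaps are of whole gene spans, introns included, and the exon bases shared were not measured. The sources used here do not say that strand was kept in counting. Reads from any exon shared by Trim7 or Rnf10 and these partners therefore cannot be told apart.

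The abundance of red cell transcripts differed between the same mice. In a list of 19 measured red cell membrane genes, 13 were called higher in AIWG-P mice (68.4%, against 4.06% of all genes) and none lower. The mean log2 value of the list was between 8.12 and 8.70 in AIWG-P mice and between 7.18 and 8.35 in AIWG-R mice. R9 was lowest on this list and lowest of the 10 mice in Rnf10, Rnf11, Trim10 and Trim58, and P7 was the lowest AIWG-P mouse in the list and in these 4 genes. The summed value of the list was between 43384 and 70903 in AIWG-P mice and between 29527 and 59159 in AIWG-R mice, and no marker was at 0. Of the other cell type lists, Cd68 of 12 monocyte genes was called higher and Ncr1 of 12 NK cell genes lower (each 8.33% of its list). None of 9 neutrophil, 12 platelet, 12 B cell and 13 T cell genes was called. A negative log2 fold change was found in 1 of 9 neutrophil, 1 of 12 monocyte and 3 of 13 T cell genes, against 51.6% of all genes. It was found in 5 of 12 platelet, 7 of 12 B cell and 7 of 12 NK cell genes. The median log2 fold change was 0.22 for the neutrophil and 0.14 for the monocyte list. The neutrophil list had a median of 9.71 in AIWG-P mice and 9.15 in AIWG-R mice, with R1 highest at 10.19.

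**Figure D2:**
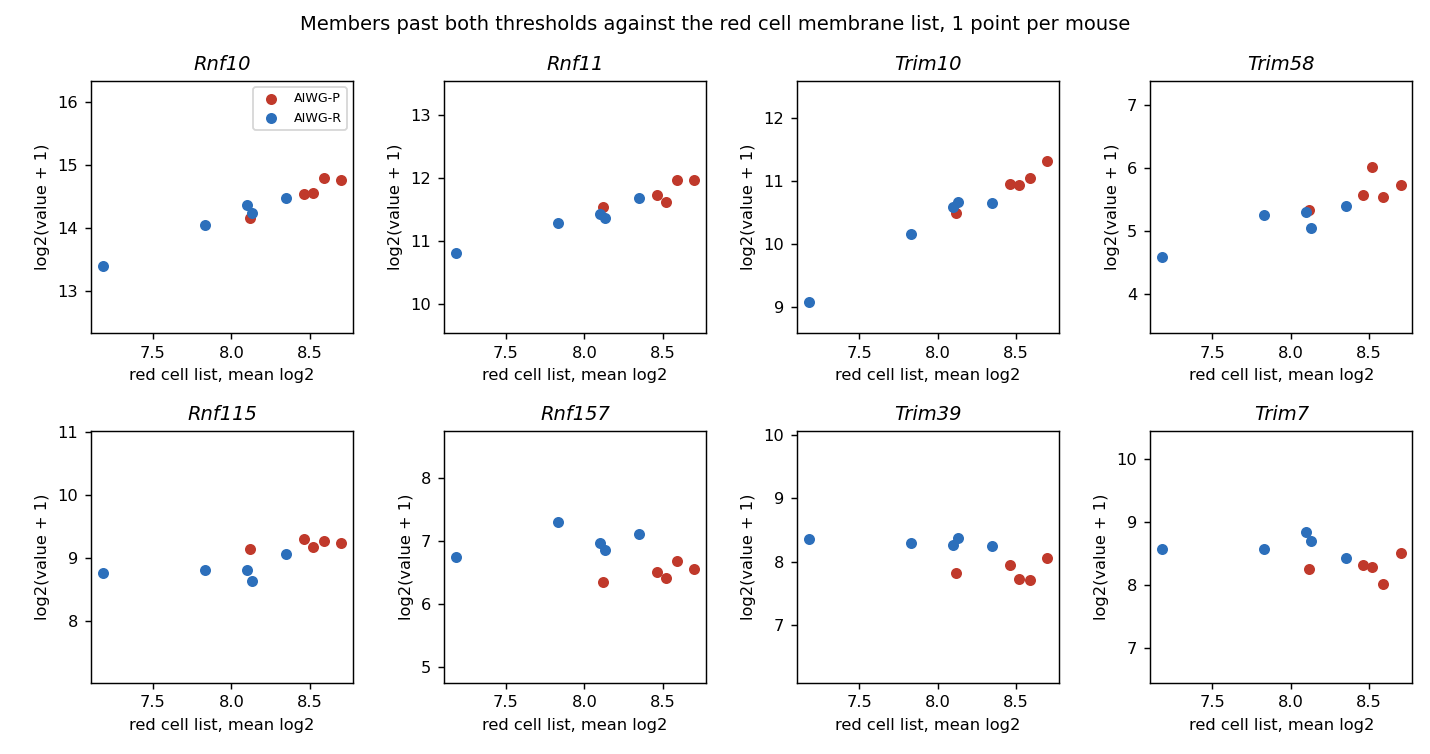
Each member's log2(value + 1) (vertical axes, 4 log2 units in every panel) against the mean log2 value of the red cell membrane list (horizontal axes) in each mouse, AIWG-P red and AIWG-R blue. In the upper 4 panels R9 is at the lower left, at 7.18 on the list, and the AIWG-P mice are toward the upper right. Rnf115 also tends to rise with the list, though R1 and not R9 is its lowest mouse. Rnf157, Trim39 and Trim7 do not rise with the list, and Trim39 tends to fall.

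With the mean of that list as a covariate in limma, the 4 genes lost their calls. The log2 fold change was -0.08 ± 0.11 for Rnf10 and -0.08 ± 0.11 for Trim10, whose direction thus turned, 0.06 ± 0.10 for Rnf11 and 0.17 ± 0.20 for Trim58 (SE). The other 4 kept theirs, with 0.33 ± 0.11 for Rnf115, -0.44 ± 0.12 for Trim39, -0.64 ± 0.15 for Rnf157 and -0.38 ± 0.14 for Trim7 (SE). Rnf115 did so by a narrow margin, at 0.334 against the threshold of 0.3219. The list contains none of the 93 genes.

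**Figure D3:**
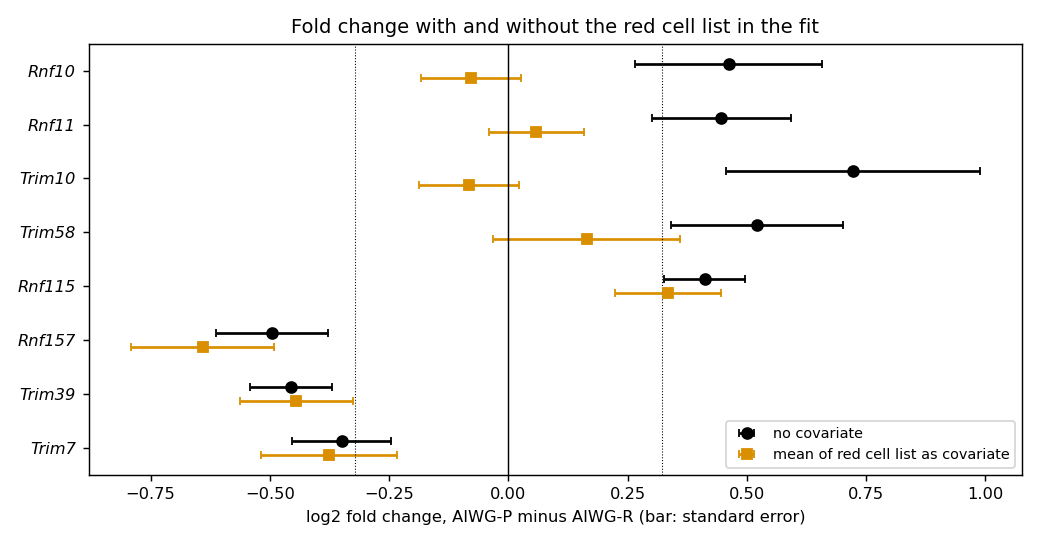
Log2 fold change, AIWG-P minus AIWG-R, of the 8 called members without a covariate (black circles) and with the red cell membrane list as a covariate (orange squares), with the SE as bars and the threshold of 0.3219 dotted. Rnf10, Rnf11, Trim10 and Trim58 move to between -0.08 and 0.17, and the other 4 stay past the threshold, Rnf115 only narrowly at 0.334.

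Leaving out the globin genes from the library size moved the median log2 fold change of all genes to -0.15, against -0.01 as deposited, and only 11.8% of calls over all genes were then higher, against 55.7%. Under that scaling Rnf10, Rnf11 and Rnf115 lost their calls (Rnf115 at 0.27), Trim10 and Trim58 kept theirs, and Rnf157, Trim39 and Trim7 were still called lower. That scaling divides each mouse by a single factor, which shifts the log2 fold change of every gene nearly alike. The place of the families relative to the median of all genes, 0.02 for RNF and -0.11 for TRIM genes, therefore could not change.

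Small negative differences were common among the TRIM genes. A negative log2 fold change was found in 28 of 34 TRIM genes (82.4%), in 28 of 59 RNF genes (47.5%) and in 51.6% of all genes, with medians of -0.12, 0.01 and -0.01. Of the 34, 30 were not called. Without P8 the count of negative TRIM genes was 23 of 34 with a median of -0.05, and with the red cell list as covariate it was 25 of 34. P8 was the lowest of the 10 mice in 16 of 34 TRIM genes and 20 of 59 RNF genes, in all 38.7% of members, and in 28.5% of all genes.

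**Figure D4:**
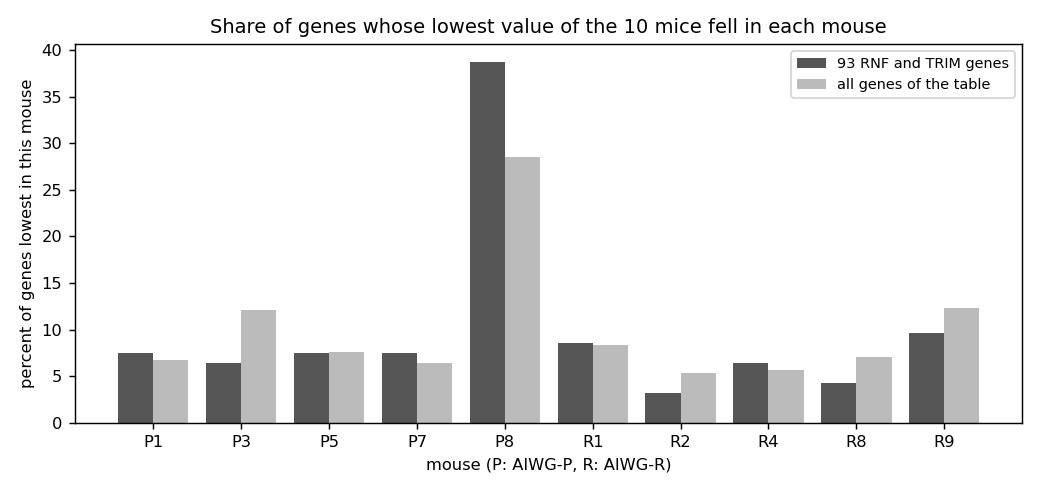
Percent of genes (vertical axis, from 0) whose lowest value of the 10 mice fell in each mouse (horizontal axis), for the 93 members in dark bars and for all 10431 genes in light bars. P8 is lowest for 38.7% of members and 28.5% of all genes, and no other mouse passes 12.3% in either set.

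None of the TRIM genes listed for viral restriction or interferon signaling was called with all 10 mice in the fit. Of all genes, 4.06% were called higher and 3.23% lower, and in lists as short as these 0 calls is close to those shares. In a list of chromosome 7 TRIM genes drawn up for viral restriction, 9 of 10 measured genes were negative and 0 were called. The median log2 fold change of the list was -0.14. This list is wider than the cluster at chr7:104244207-104508099. Of the measured genes with a start site in that cluster, Trim5, Trim12a, Trim30a, Trim30b, Trim30d and Trim34a were negative (-0.32 to -0.05). Trim12c was at 0.03, and none of these genes was called. Trim5, whose primate counterpart blocks retroviral capsids, came nearest, with 213.9, 246.6, 220.4, 183.1 and 146.1 in AIWG-P mice against 231.7, 228.0, 256.6, 245.1 and 285.9 in AIWG-R mice. P8 and R9 were the extremes and the cohorts overlapped (log2 fold change -0.321 ± 0.13, SE; limma p = 0.0282, adjusted p = 0.359, exact permutation p = 0.0397). The change was just short of the threshold. Trim5 was called lower with a pseudocount of 0.1 (-0.322), with globins left out (-0.46) and without any one of P1, P3, P5, R1, R2 or R8 (-0.33 to -0.40), and was at -0.21 without P8. In sequence, 36.3% of the distinct 50-base stretches of Trim5 exons also occur in other genes, most of them in Trim12c, so its value is uncertain.

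Among 11 measured TRIM genes of interferon and NF-kB signaling, 0 were called and 9 were negative (81.8%, against 51.6% of all genes). Trim25, which ubiquitinates the RNA sensor RIG-I, had 828.0, 889.2, 820.5, 756.2 and 524.7 in AIWG-P mice, against 781.1, 822.4, 922.9, 778.8 and 771.3 in AIWG-R mice. Trim56, a ligase of the cGAS and STING pathway, had 655.1, 927.4, 899.4, 698.8 and 450.9 in AIWG-P mice, against 773.5, 818.0, 828.5, 715.9 and 987.0 in AIWG-R mice. Trim30a, a mouse inhibitor of NF-kB signaling, had 574.1, 733.2, 713.4, 650.3 and 450.9 in AIWG-P mice, against 663.0, 610.6, 729.6, 522.8 and 681.6 in AIWG-R mice. In all 3 genes P8 was the lowest mouse and the other AIWG-P mice lay among the AIWG-R mice or close to them. Without P8 the log2 fold change was 0.02 for Trim25, 0.06 for Trim30a and -0.06 for Trim56, against -0.11, -0.05 and -0.22 with it. The interferon-stimulated list had a mean log2 value between 8.05 and 8.33 in AIWG-P mice and between 7.91 and 8.25 in AIWG-R mice. Of its 20 genes, 3 were called higher (Irf7, Isg15 and Rsad2) and none lower, which is 15.0% against 4.06% of all genes called higher.

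Trim34a of the chromosome 7 cluster had the highest TRIM level per length after Trim10, at a mean of 248 per kilobase of exon, with 524.7 to 705.9 (median 636.1) in AIWG-P mice and 621.5 to 703.8 (median 691.0) in AIWG-R mice. Its exons share 39.8% of their 50-base stretches with Trim34b, which makes the split between the pair uncertain. Trim59, a membrane-anchored TRIM protein, had a log2 fold change of 0.22 ± 0.08 (SE; limma p = 0.0176, adjusted p = 0.343, exact permutation p = 0.0238), under the fold threshold, with 507.3 to 567.2 in AIWG-P mice and 422.7 to 518.5 in AIWG-R mice. Trim11 was at -0.19 ± 0.08 (SE; limma p = 0.0372, adjusted p = 0.373, exact permutation p = 0.0238), with 300.1 to 369.9 in AIWG-P mice and 354.9 to 397.0 in AIWG-R mice. The nuclear co-repressors Trim24, Trim28 and Trim33 were not called, at -0.14, 0.03 and -0.10.

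Neighboring TRIM genes differed in direction. The MHC region of chromosome 17 holds Trim10 and Trim39, which were called in opposite directions, and Trim26, which was not called (-0.17). Trim27, on chromosome 13 in the mouse, was not called either (-0.03). Trim26, an interferon pathway ligase, had 598.3, 552.1, 497.0, 455.3 and 474.5 in AIWG-P mice against 630.8, 595.4, 583.5, 529.3 and 552.5 in AIWG-R mice.

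**Figure D5:**
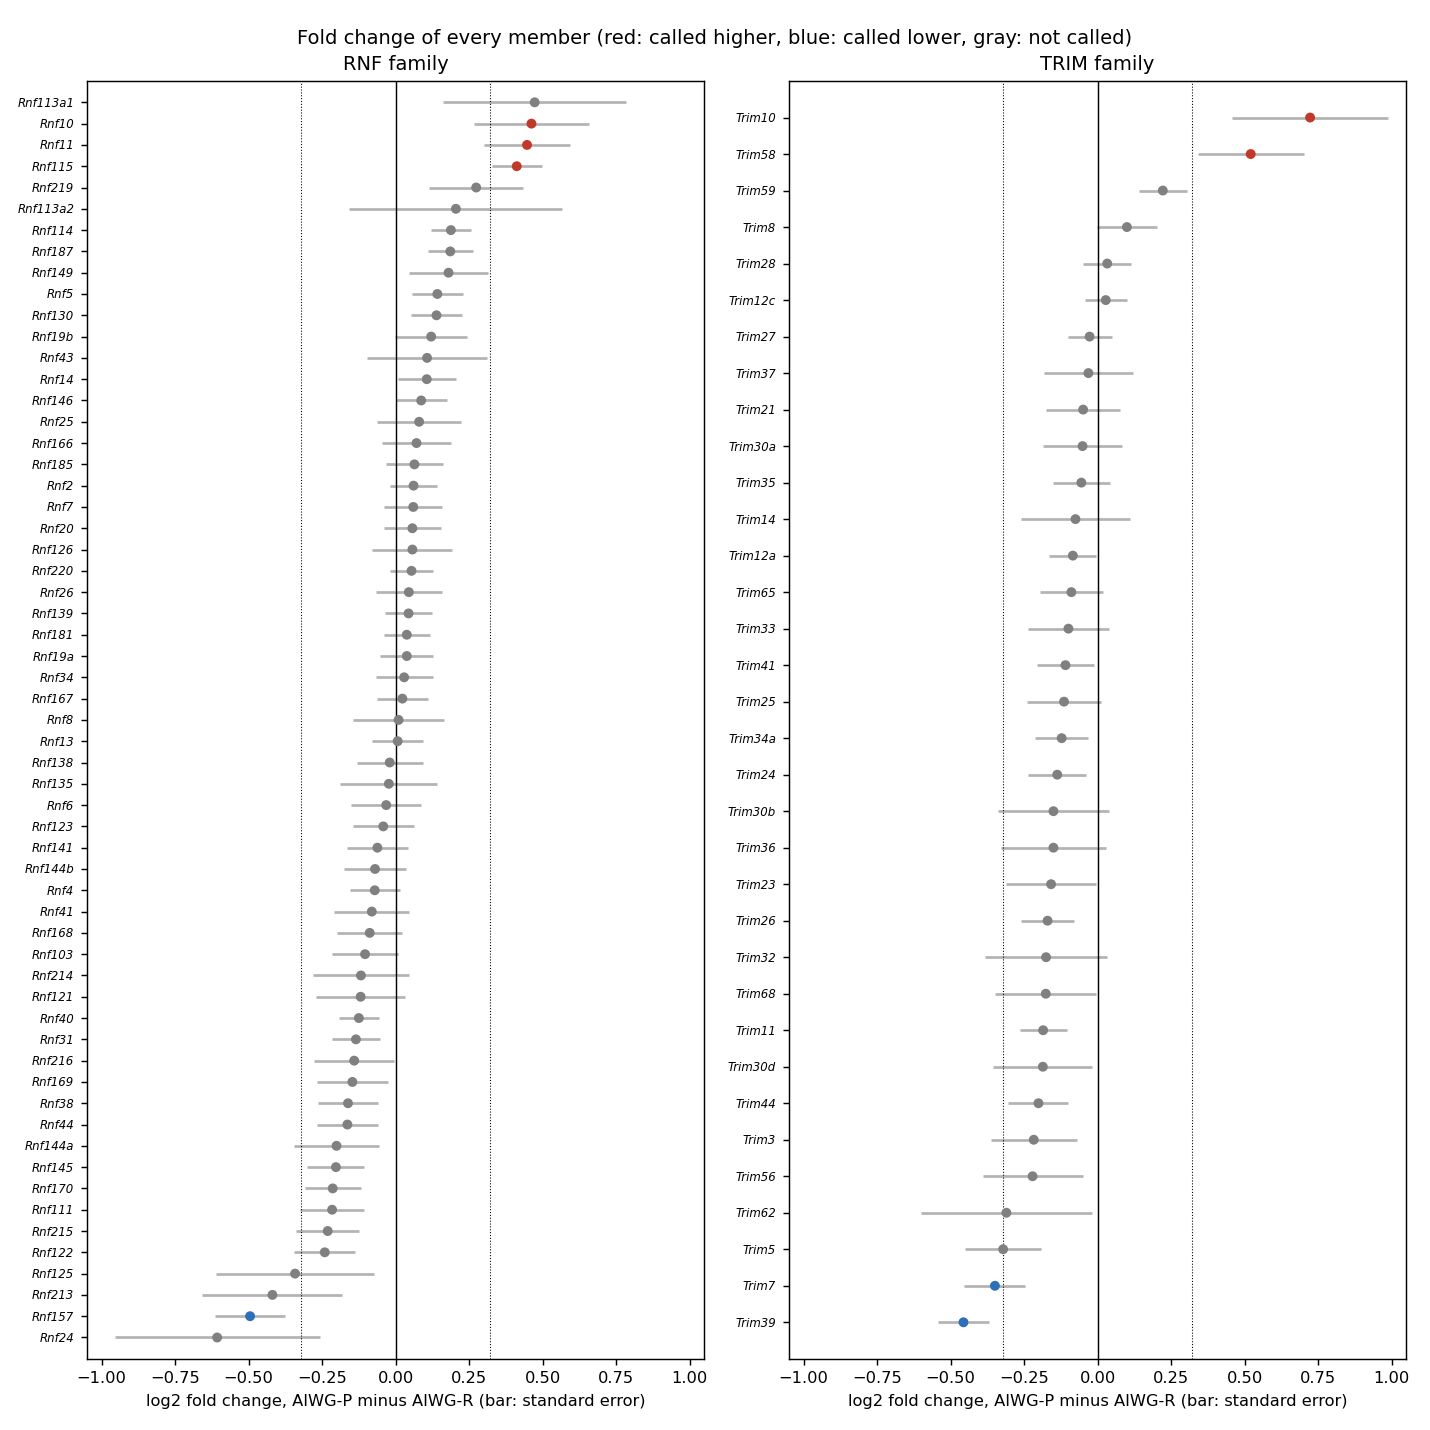
Log2 fold change, AIWG-P minus AIWG-R, with its SE (horizontal axes) for the 59 RNF genes on the left and the 34 TRIM genes on the right, sorted within each family, with the threshold of 0.3219 dotted. The 5 red points are the members called higher, the 3 blue points those called lower, and 28 of 34 TRIM points lie left of 0.

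The other 55 RNF genes were not called. Of 11 chromatin and DNA damage ligases, 7 RING-between-RING ligases and 18 membrane-anchored ligases, 0 were called in each group. Over all genes 4.06% were called higher and 3.23% lower, so 0 calls in groups this small is close to the background. The median log2 fold changes of the groups were -0.02, -0.07 and -0.03. Among 12 RNF genes of immune signaling, Rnf11 and Rnf115 were called higher (16.7%, against 4.06% of all genes) and none lower (against 3.23%). Rnf114, an interferon-induced ligase tied to psoriasis in humans, belongs to that group and had 847.3, 835.7, 901.8, 833.5 and 903.4 in AIWG-P mice, against 732.8, 749.1, 797.3, 794.0 and 719.9 in AIWG-R mice. Every AIWG-P mouse was above every AIWG-R mouse, but the log2 fold change of 0.19 ± 0.07 (SE; limma p = 0.0162, adjusted p = 0.343, exact permutation p = 0.00794) was under the fold threshold.

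Rnf170, which degrades IP3 receptors at the endoplasmic reticulum, had 78.6, 85.1, 82.8, 82.2 and 73.8 in AIWG-P mice, against 94.4, 85.8, 86.4, 97.6 and 104.1 in AIWG-R mice. The cohorts did not overlap, by a gap of less than 1 unit, and the log2 fold change was -0.21 ± 0.10 (SE; limma p = 0.0425, adjusted p = 0.382, exact permutation p = 0.00794). Rnf40, which with Rnf20 places ubiquitin on histone H2B, had 487.1, 489.9, 468.9, 443.5 and 469.8 in AIWG-P mice, against 500.0, 547.1, 527.4, 505.5 and 494.1 in AIWG-R mice. It too did not overlap, at a log2 fold change of -0.13 ± 0.07 (SE; limma p = 0.0889, adjusted p = 0.444, exact permutation p = 0.00794), whereas its partner Rnf20 was at 0.06 ± 0.10 (SE). With Rnf115, Rnf114 and Rnf157 these are the 5 of 59 RNF genes whose cohorts did not overlap, 3.39% above and 5.08% below, against 1.11% above and 1.44% below over all genes.

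A few RNF genes had wide spread and fold changes past the threshold without a call. Rnf213, the giant ligase linked to moyamoya disease in humans, had 1229.3, 2064.3, 2198.2, 1283.8 and 826.4 in AIWG-P mice, against 1815.3, 1714.6, 2196.8, 1481.7 and 2500.1 in AIWG-R mice (log2 fold change -0.42 ± 0.24, SE; limma p = 0.101, adjusted p = 0.457, exact permutation p = 0.19). Rnf213 was called lower without P3 (-0.55) or without P5 (-0.58), and was at -0.22 without P8. Rnf24 had 14.5, 42.6, 27.4, 27.7 and 7.9 in AIWG-P mice, against 37.6, 35.8, 31.2, 27.1 and 30.1 in AIWG-R mice (log2 fold change -0.61 ± 0.35, SE; limma p = 0.106, adjusted p = 0.462, exact permutation p = 0.238). In both genes P8 was lowest, and P5 or P3 was the highest AIWG-P mouse. Rnf113a1 at 0.47 ± 0.31 and Rnf125 at -0.34 ± 0.27 (log2 fold change, SE) were likewise not called. The coefficient of variation had a median of 12.0% in AIWG-P mice and 8.2% in AIWG-R mice over RNF genes, and of 14.8% in AIWG-P mice and 9.0% in AIWG-R mice over TRIM genes.

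The other abundant or near-threshold RNF genes were not called. Rnf167, an endosomal and lysosomal membrane ligase, had 811.9 to 1045.5 (median 918.6) in AIWG-P mice and 858.5 to 962.4 (median 935.0) in AIWG-R mice. Rnf145, a sterol-responsive ligase of the endoplasmic reticulum that degrades HMG-CoA reductase, had 661.4 to 924.1 (median 856.2) in AIWG-P mice and 879.7 to 1049.3 (median 966.4) in AIWG-R mice (log2 fold change -0.20 ± 0.10, SE; limma p = 0.0566, adjusted p = 0.398, exact permutation p = 0.0397). Rnf187, a coactivator of c-Jun, had 523.7 to 619.0 (median 608.0) in AIWG-P mice and 496.2 to 565.9 (median 506.5) in AIWG-R mice (0.19 ± 0.08, SE; limma p = 0.0294, adjusted p = 0.361, exact permutation p = 0.0238). Rnf122 had 69.1 to 77.2 (median 71.3) in AIWG-P mice and 77.1 to 97.4 (median 82.4) in AIWG-R mice, a narrow overlap of P7 with R9 (-0.24 ± 0.10, SE; limma p = 0.0354, adjusted p = 0.37, exact permutation p = 0.0159).

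Many E2 enzymes, which carry ubiquitin or, for some of them, a ubiquitin-like protein, were higher in AIWG-P mice. Of 31 measured, 10 were called higher (Ube2b, Ube2c, Ube2e3, Ube2f, Ube2h, Ube2l6, Ube2m, Ube2o, Ube2r2 and Ube2s), which is 32.3% against 4.06% of all genes, and 0 were called lower, with a median log2 fold change of 0.20, against -0.01 over all genes. Ube2f, an E2 for the ubiquitin-like NEDD8, had 498.1 ± 63.1 in AIWG-P mice and 333.5 ± 53.6 in AIWG-R mice (SD, n = 5 each) and did not overlap. Ube2o, which clears ribosomes from maturing mouse reticulocytes, had 17040 ± 2880 in AIWG-P mice and 13080 ± 3130 in AIWG-R mice (SD, n = 5 each). With the red cell list as covariate 1 of 31 E2 enzymes was called higher, without P8 or without R9 it was 5 of 31, and without P1 or without R4 it was 6 of 31. Calls higher over all 10429 genes fell in the same fits. They were 423 in the main fit, 137 with the covariate, 283 without P8, 265 without R9, 324 without P1 and 342 without R4.

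Of 48 measured RING ligases with other names, 5 were called higher (March2, March5, March8, Mkrn1 and Siah2) and 2 lower (Mdm4 and Brca1), which is 10.4 and 4.17%, against 4.06 and 3.23% of all genes. Mdm4, an inhibitor of p53, had 289.9 ± 135.0 in AIWG-P mice and 442.5 ± 70.3 in AIWG-R mice (SD, n = 5 each). Of 23 HECT ligases, which take ubiquitin onto themselves before passing it on, 1 was called lower (Huwe1), 0 higher, and 19 were negative (82.6%, against 51.6% of all genes). Of 8 E1 enzymes, which activate ubiquitin and its relatives, 1 was called lower (Uba6), and of 4 ubiquitin genes 1 was called higher, Ubb, at 68510 ± 18900 in AIWG-P mice and 47740 ± 14100 in AIWG-R mice (SD, n = 5 each).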

How the data were processed

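The authors aligned blood reads to mouse transcripts by Bowtie2, quantified genes by RSEM and tested them by limma. The submitters' processing notes name mm9, and no version is stated. The deposited table lists a normalized signal for every mouse, whose scaling by the authors is unknown, with a mean signal of each cohort. Further deposited columns carry a signed fold score, a log2 ratio, a p-value and a q-value from the authors' comparison, and none of these was used. Depth is therefore known only as the sum of values per mouse.

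Values were compared as log2(value + 1), AIWG-P minus AIWG-R, in limma 3.58.1 (R 4.3.3) with a mean-variance trend and no covariate, for genes that exceeded 1 in 5 or more mice, with Benjamini-Hochberg adjustment over all genes. Single genes also got an exact two-sided permutation test. The fit was tested on simulated data. Levels per kilobase divide by summed exon length, and gene overlaps were read, in a GENCODE annotation of GRCm38. Named genes were all called or non-overlapping members, the 5 highest by mean and the 3 lowest by p that missed a threshold in each family, members of the study's gene sets, and members of the role groups where a group is described. Which role group members to print (such as Trim24, Trim26, Trim27, Trim28, Trim33, Rnf20, Rnf24, Rnf113a1 and Rnf125), the overlapping partner genes and the examples from the enzyme lists were chosen after their values were seen. Members, lists and rules were chosen with earlier results of these data known. Symbols deposited as dates were matched by Entrez identifier.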

Additional observations from a re-analysis of the deposited data

Results flagged for a closer look

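In 46 pairs of a named member and a cohort, 2 held a mouse far from the other 4 by Dixon's test, which chance gives in about 1 in 20 groups. Rnf145 was 661.4 in P8 and between 849.7 and 924.1 in the other AIWG-P mice. Rnf187 was 523.7 in P3 and between 605.8 and 619.0 in the other AIWG-P mice.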

How the results depend on the processing

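Trim39 kept its call in 21 of 21 alternatives, Trim10, Rnf115 and Rnf157 in 20 of 21, Trim58 in 18 of 20, Trim7 in 17, Rnf11 in 16 and Rnf10 in 12. These counts include the fit with the mouse number as a block, described below, which rests on P1, R1, P8 and R8 alone. RNF genes called higher (3) were 1 with quantile normalization, 0 with globins left out, 1 with the red cell covariate, 1 with P8 and R9 left out together (chosen after seeing the data), 5 with no fold threshold and 1 to 4 with each mouse left out in turn. RNF genes called lower (1) were 6 with globins left out, 3 with no fold threshold and 1 to 3 with each mouse left out. TRIM genes called higher (2) were 1 under the stricter filter, which drops Trim58, and 0 with the red cell covariate. TRIM genes called lower (2) were 6 with globins left out, 1 without P8 and R9, 4 with no fold threshold and 1 to 4 with each mouse left out. All genes called higher (423) were 162 with globins left out, 137 with the red cell covariate, 178 without P8 and R9, 702 with no fold threshold and 265 to 563 with each mouse left out. All genes called lower (337) were 1212, 188 and 638 with globins left out, without P8 and R9 and with no fold threshold, and 228 to 637 with each mouse left out. E2 enzymes called higher (10) were 6 with quantile normalization, 3 with globins left out, 1 with the red cell covariate, 4 without P8 and R9 and 5 to 10 with each mouse left out. Direction turned for Rnf10 (-0.078) and Trim10 (-0.083) with the red cell covariate, for Rnf167 with globins left out (-0.12), the covariate (-0.067), without P8 and R9 (-0.033), and between -0.02 and 0.071 with each mouse left out, for Trim25 without P8 (0.015, and between -0.175 and 0.015 with each mouse left out), for Trim30a with the covariate (0.117), without P8 and R9 (0.085) and between -0.123 and 0.06 with each mouse left out, and for Trim56 without P8 and R9 (0.006). The causes were not tested. The labels also carry a digit, 3 in P7, P8 and R1 and 4 in the other mice, whose meaning they do not give. That digit as a covariate left all 8 calls in place. The running number per library was not used as a covariate. A count test on recovered reads was not run.

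Mouse numbers 1 and 8 occur in both cohorts. As a replicate block, the mouse number fits each of the other mice exactly, so the cohort difference comes from P1, R1, P8 and R8 alone. Almost no residual spread is then left, so the p-values, calls and lost calls of that fit are not taken as results. With the mouse number as a replicate block, RNF genes called higher and lower were 6 and 7, TRIM genes 1 and 4, and all genes 770 and 1006, with 422 genes at an adjusted p under 0.05 in limma against 0 without it. Rnf157 (-0.36), Trim58 (0.41) and Trim7 (-0.31) lost their calls there, and Trim5 (-0.43) and Rnf213 (-0.70) were called lower. Same-numbered mice had deviation correlations of 0.12 and 0.33, but 2 pairs are too few to take as a pairing.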
